A study of Mus musculus with 4 samples.

Results

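The guanylate-binding proteins are a family of large GTPases, and 9 of their genes, Gbp2, Gbp2b, Gbp3, Gbp4, Gbp5, Gbp6, Gbp7, Gbp8 and Gbp9, were taken by symbol from the 78334 gene identifiers of the deposited table. All 9 had an identifier. They were chosen because the family's counts in this one contrast, though not those of every member, were already known to be high. Their values are therefore given as a description and rest on no test. The cells were wild-type mouse retinal ganglion cells, whose axons form the optic nerve, isolated 2 weeks after the nerve was crushed. One group of eyes had received an adeno-associated virus (AAV2) with an anti-miR132-3p shRNA, a hairpin against the microRNA miR-132-3p. The other had received AAV2 with a scramble shRNA, and both vectors also carried the red fluorescent reporter mCherry. The virus was given at 8 weeks of age, 2 weeks before the crush, to mice of both sexes. All groups therefore share the crush, the virus and the reporter, and eyes without them were not analysed here. Per the series' design text, the retinas of a condition were pooled (10 of them), ganglion cells were enriched by panning on Thy1 and then sorted for the reporter, which about 40% of ganglion cells carried, and each of the 2 replicates of a condition held about 5000 cells.

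The 4 libraries held 1731199 to 1846637 counts. The 2 libraries of a group differed by no more than sampling noise: chi-square per degree of freedom, taken over genes, was 1.00 for the anti-miR132-3p pair (p = 0.49) and 1.02 for the scramble pair (p = 0.095), against 4.01 to 4.03 for pairs across the groups. Each pair was counted as 1 sample, so each group has n = 1, and no difference below has a replicate check. The columns named mCherry were taken as the scramble shRNA by exclusion, and every direction rests on this. Levels are CPM, counts brought to a common library size, scaled by TMM, a method that corrects for a few very abundant genes. Folds are ratios of the summed CPM of a pair, with exact 95% intervals (Clopper-Pearson) that cover counting error only. A group with 0 counts was set to 3 counts over the pair, which is 0.820 CPM for the scramble pair, and the fold is then a lower bound. Genes were called higher or lower by size alone, at 2-fold, among the 11427 genes that passed a filter on low counts.

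Guanylate-binding proteins are made in many cell types after interferon signalling, most strongly after interferon gamma, and are scarce without it. Interferon receptors act through JAK kinases on STAT proteins. STAT proteins bind a promoter element called the gamma-activated site (GAS) and, in a complex with IRF9, the interferon-stimulated response element (ISRE), which IRF1 also binds. The proteins bind GTP, assemble on the membranes of vacuoles that hold parasites or bacteria, and act with a related family, the immunity-related GTPases. In mouse, Gbp2b, Gbp2 and Gbp5 carry a C-terminal lipid anchor (prenylation), and the family forms a cluster on chromosome 3 (Gbp5, Gbp7, Gbp3, Gbp2b and Gbp2) and one on chromosome 5 (Gbp8, Gbp9, Gbp4 and Gbp6, with Gbp10 and Gbp11).

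The microRNA that the hairpin targets is shown with its seed, bases 2 to 8, in capitals, because microRNA target sites usually pair with those letters. The target sequence in the labels is the same as the mature miR-132-3p of RefSeq (GRCm38.p6), and miR-212-3p, made from the same gene cluster on chromosome 11, has the same seed.
mmu-miR-132-3p: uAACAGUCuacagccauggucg
mmu-miR-212-3p: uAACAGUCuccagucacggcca
All 9 members had an annotated 3′ untranslated region in GENCODE M21, and 0 of the 9 held the 7-base seed match GACTGTT in the annotated sequence, against 10.7% of 21020 genes. That says only that these letters were not in those windows. Mir132 and Mir212 themselves had 0 counts in all 4 libraries, and libraries of polyA RNA do not measure the mature microRNA, so its loss is not checked here.

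The promoters are shown because Gbp2, Gbp2b, Gbp3 and Gbp7 were high together in the same libraries. That of Gbp5, which had 0 counts in all 4 libraries, is shown beside them. RefSeq starts (GRCm38.p6) were at hand for 5 of the 9 members, those of the chromosome 3 cluster. The last 180 bases before the start are printed for each, with capitals marking the ISRE core (GAAA, any 2 bases, GAAA, which on the other strand reads TTTC, any 2 bases, TTTC) and the GAS (TTCNNNGAA, which reads the same on both strands). For Gbp3 the first of its 2 starts is shown.
Gbp2, chr3:142620483-142620662, forward strand: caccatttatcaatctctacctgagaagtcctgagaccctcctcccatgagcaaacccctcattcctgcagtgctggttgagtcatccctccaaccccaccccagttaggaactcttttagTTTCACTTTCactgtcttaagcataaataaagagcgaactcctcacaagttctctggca
Gbp2b, chr3:142594667-142594846, forward strand: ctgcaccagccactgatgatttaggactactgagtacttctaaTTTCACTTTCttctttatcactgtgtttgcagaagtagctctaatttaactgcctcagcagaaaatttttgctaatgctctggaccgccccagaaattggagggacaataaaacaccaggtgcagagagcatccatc
Gbp5, chr3:142496754-142496933, forward strand: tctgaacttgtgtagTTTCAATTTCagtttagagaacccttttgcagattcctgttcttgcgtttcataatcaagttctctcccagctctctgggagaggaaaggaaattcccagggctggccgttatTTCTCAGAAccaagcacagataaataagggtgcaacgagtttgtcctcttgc
Gbp3, chr3:142559864-142560043, forward strand: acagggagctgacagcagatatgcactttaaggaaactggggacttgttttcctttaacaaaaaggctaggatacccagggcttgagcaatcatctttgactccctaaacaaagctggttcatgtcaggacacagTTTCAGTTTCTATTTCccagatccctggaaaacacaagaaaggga
Gbp7, chr3:142530156-142530335, forward strand: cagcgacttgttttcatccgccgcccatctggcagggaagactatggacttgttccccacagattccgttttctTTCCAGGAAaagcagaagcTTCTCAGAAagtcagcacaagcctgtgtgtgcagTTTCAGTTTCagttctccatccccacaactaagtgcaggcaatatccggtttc
Within 250 bases before a start, all 5 genes held an ISRE core, a pattern found in 2.98% of 32851 promoters of that length. Shares of all promoters count each start by itself, while the members are counted by gene. In Gbp2 and Gbp2b it was the same run, TTTCACTTTC, beginning 59 bases before the start of Gbp2 and 137 bases before that of Gbp2b. Gbp3 held 2 matches that overlap, at 45 and 39 bases before its first start, and none before its second. Gbp7 had its ISRE core at 53 bases before the start and Gbp5 at 165. A GAS was found in 2 of the 5, Gbp5 and Gbp7, with 2 matches each, against 7.02% of all promoters, and none overlapped an ISRE core. Of the 373 genes at least 2-fold higher that had a promoter at hand, 27 held an ISRE core (7.24%), and of the other 8113 tested genes 223 did (2.75%). The 27 include the members Gbp2, Gbp2b, Gbp3 and Gbp7. A GAS was held by 32 of the same 373 genes (8.58%) and by 559 of the other 8113 (6.89%). These are matches of letters, not shown sites of binding.

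**Figure D1:**
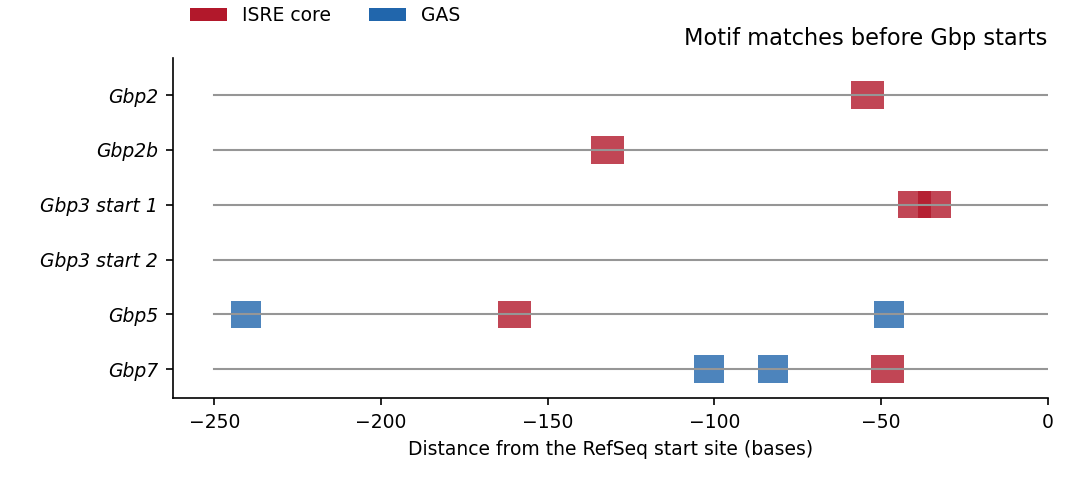
Matches of the ISRE core (red) and the GAS (blue) in the 250 bases before each RefSeq start of the 5 chromosome 3 members. The horizontal axis is the distance from the start in bases, and each line is 1 start. Every gene has at least 1 red mark, and blue marks appear only before Gbp5 and Gbp7.

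Of the 9 members, 7 were higher in the anti-miR132-3p pair, by 5.02-fold to 49.2-fold with 3 of the values lower bounds, and 2 could not be compared. Summed over all 9 genes, the family held 211 and 214 counts in the anti-miR132-3p libraries, against 14 and 21 counts in the scramble libraries. That is 120.6 and 122.5 CPM in the anti-miR132-3p pair, against 7.67 and 11.5 CPM in the scramble pair. The libraries of the groups do not come near each other, and the summed level was 12.7-fold higher (8.99 to 18.5). In sorted cells sequenced in bulk, more cells that express a gene and more RNA per cell cannot be told apart.

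The filter was passed by 5 of the 9 members, Gbp2, Gbp2b, Gbp3, Gbp7 and Gbp9. Each of the 5 passed it through the anti-miR132-3p libraries, where they are high. In the scramble pair Gbp2, Gbp2b and Gbp9 had at most 1 count, Gbp3 had 5 and 5, and Gbp7 had 8 and 12. These 5 were at least 2-fold higher, where 4.3% of all tested genes were, and 0 were at least 2-fold lower, where 0.954% were. By edgeR's quasi-likelihood test with Benjamini-Hochberg adjustment, an alternative that here compares these libraries and not the conditions, the same 5 were called higher, as were 13.4% of tested genes, and 10.3% were called lower. All 5 had both anti-miR132-3p libraries above both scramble libraries, where 31.1% of all tested genes did. As the members were chosen on this contrast, nothing is read from these counts. Ranked by fold among the 11427 tested genes, Gbp2 came 2nd, Gbp2b 10th, Gbp3 15th, Gbp9 16th and Gbp7 43rd. These places are approximate, since the values of Gbp2b and Gbp9 are lower bounds and that of Gbp2 rests on 1 scramble count. The median log2 fold of the 5 was 3.88, against -0.0041 over all tested genes.

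**Figure D2:**
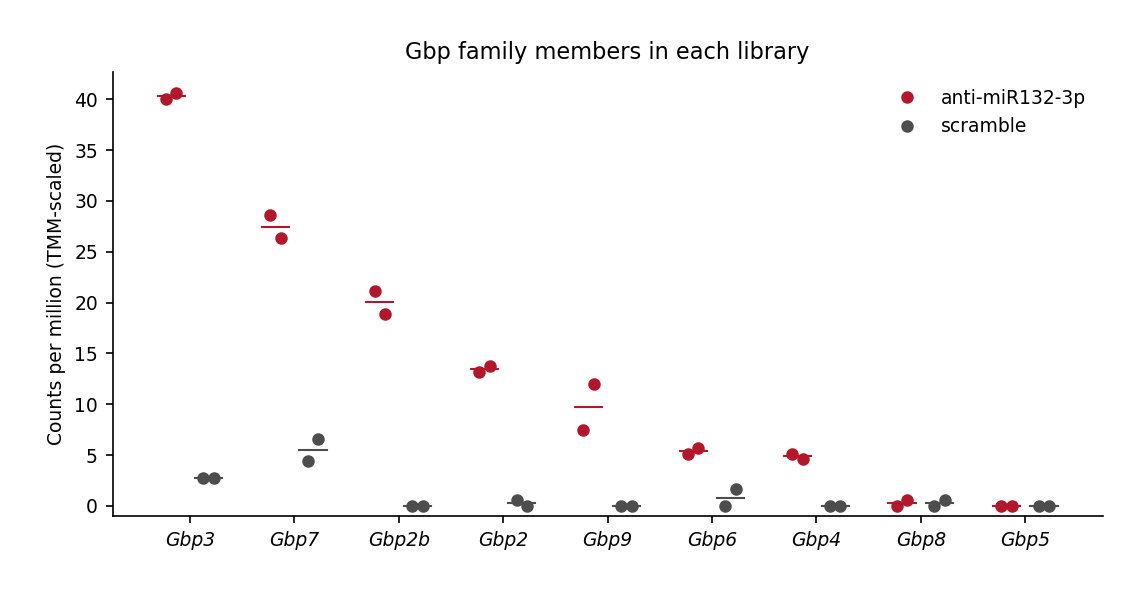
TMM-scaled level (CPM) of each member in each library. Points are libraries and short lines their mean, red for the anti-miR132-3p and grey for the scramble shRNA. Gbp3 stands highest at 40.0 and 40.6 CPM in the anti-miR132-3p pair, Gbp8 has 1 count in each group, and Gbp5 has no counts.

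Among the members known to be prenylated, Gbp2 and Gbp2b were almost confined to the anti-miR132-3p libraries. Gbp2, which in mice restricts the growth of Toxoplasma in its vacuole, had 23 and 24 counts in the anti-miR132-3p pair, against 1 and 0 counts in the scramble pair. Its ratio was 49.2, with a wide interval (8.41 to 1983) because it rests on a single scramble count: it was 8.21 against 3 counts without scramble replicate 1, and 24.6 without scramble replicate 2. Gbp2b, the gene first described in mouse as Gbp1, had 37 and 33 counts in the anti-miR132-3p pair, against 0 and 0 counts in the scramble pair. Set against 3 counts in the scramble pair, it was at least 24.4-fold higher, and the lower end of the exact interval was 19.3. Against 1 scramble library alone, whose floor of 3 counts weighs more, the bound was 12.2. In neither gene do the groups overlap. Gbp5, which in mouse macrophages takes part in inflammasome activation, had 0 counts in all 4 libraries, which allows up to 0.858 CPM in the anti-miR132-3p pair and 0.820 CPM in the scramble pair. Its promoter, printed above, holds both motifs.

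The other chromosome 3 members, Gbp3 and Gbp7, were the ones with counts in every library. Gbp3, which in mouse cells gathers on Toxoplasma vacuoles, had 70 and 71 counts in the anti-miR132-3p pair, against 5 and 5 counts in the scramble pair. This was 40.0 and 40.6 CPM in the anti-miR132-3p pair, against 2.74 and 2.73 CPM in the scramble pair, 14.8-fold higher (7.79 to 31.4). Gbp7, which in mouse macrophages helps to assemble the oxidase on vacuoles, had 50 and 46 counts in the anti-miR132-3p pair, against 8 and 12 counts in the scramble pair. It was 5.02-fold higher (3.08 to 8.59), the smallest fold of the 7, and its interval overlaps that of Gbp3. Gbp3 had the most counts of the family in the anti-miR132-3p pair, and Gbp7 in the scramble pair. Gbp7 held 22.6% of the family's counts in the anti-miR132-3p pair (exact 95% interval 18.7 to 26.9), against 57.1% in the scramble pair (39.4 to 73.7). Gbp3 held 33.2% in the anti-miR132-3p pair (28.7 to 37.9) and 28.6% in the scramble pair (14.6 to 46.3). Without Gbp7, the summed fold of the other members was 22.9.

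The chromosome 5 members held fewer counts than those of chromosome 3. Gbp9 had 13 and 21 counts in the anti-miR132-3p pair, against 0 and 0 counts in the scramble pair, at least 11.9-fold higher (exact lower end 9.13). Gbp4 had 9 and 8 counts in the anti-miR132-3p pair, against 0 and 0 counts in the scramble pair, at least 5.93-fold higher (exact lower end 4.32). Gbp6 had 9 and 10 counts in the anti-miR132-3p pair, against 0 and 3 counts in the scramble pair, and its ratio of 6.63 has an interval of 1.95 to 35.0. Against 1 scramble library alone these values were 5.92 to 5.94 for Gbp9, 2.96 to 2.97 for Gbp4 and 3.31 to 3.32 for Gbp6, and without anti-miR132-3p replicate 2 that of Gbp9 was 9.06. The groups do not overlap in these 3 genes, although Gbp4 and Gbp6 stayed under the filter. The share of 31.1% given above covers tested genes only, so Gbp4 and Gbp6 have no background for this. Gbp8 had 0 and 1 counts in the anti-miR132-3p pair and 0 and 1 counts in the scramble pair, so no fold is given. Together the 4 members of chromosome 5 held 71 counts in the anti-miR132-3p pair and 4 in the scramble pair, 18.6-fold higher (6.94 to 70.0). The 5 members of chromosome 3 held 354 counts in the anti-miR132-3p pair and 31 in the scramble pair, 11.9-fold higher (8.27 to 17.9), and the intervals of the clusters overlap. Gbp10 and Gbp11, the relatives in the chromosome 5 cluster outside the 9, had 1 and 3 counts and 0 and 4 counts in the anti-miR132-3p pair and 0 in the scramble pair.

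**Figure D3:**
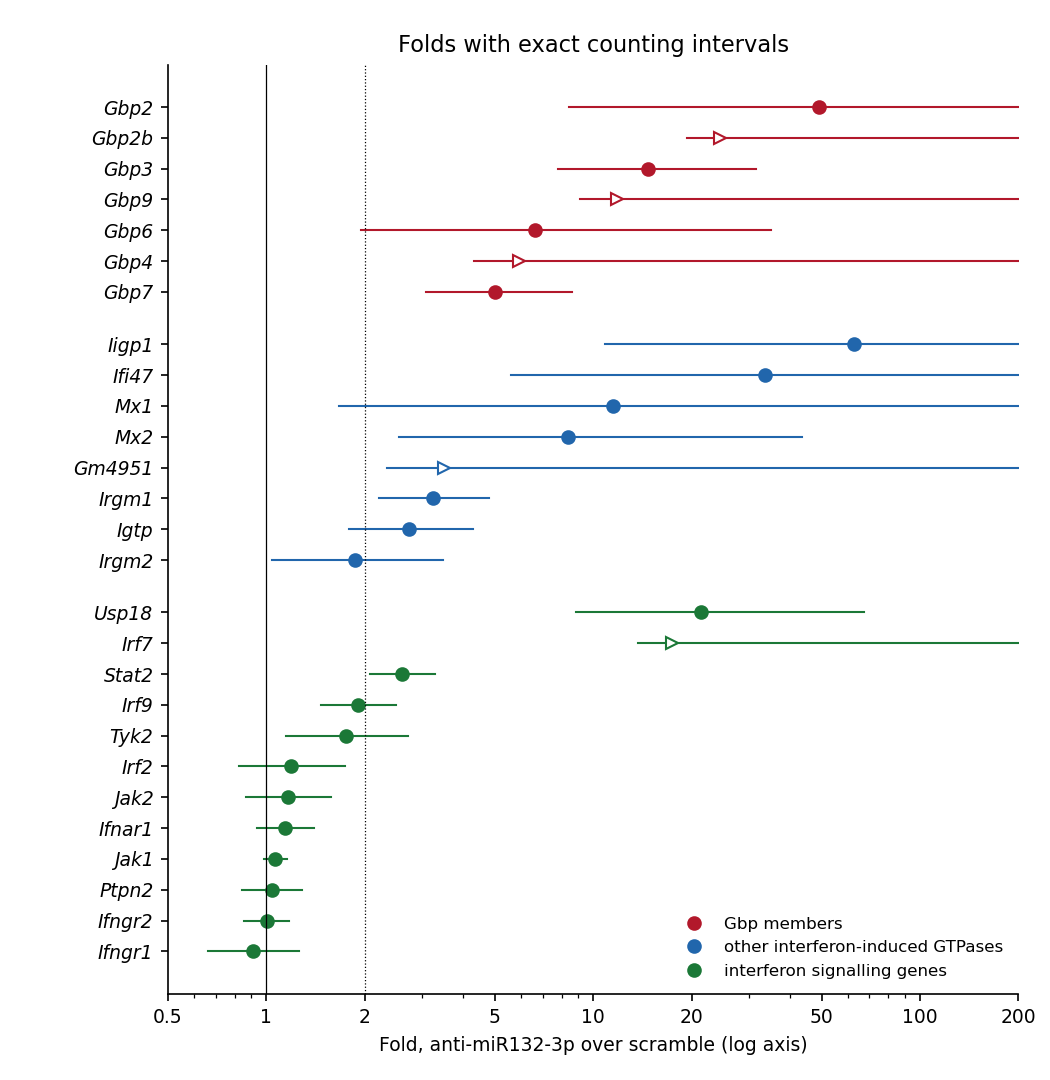
Folds of Gbp and interferon pathway genes, anti-miR132-3p over scramble, on a log axis. Filled circles are ratios, open triangles are lower bounds for genes with 0 scramble counts, and lines are exact 95% intervals, which are drawn to the edge of the axis where they have no upper end or a higher one. All 7 Gbp members drawn, and every other GTPase drawn but Irgm2, lie right of the dotted 2-fold line. The receptor genes Ifngr1, Ifngr2 and Ifnar1 lie between 0.912 and 1.14. Signalling genes under the filter are not drawn, among them the receptor gene Ifnar2, at 1.998-fold (0.921 to 4.59).

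Per kilobase of the longest annotated coding transcript, Gbp3 had the highest level in the anti-miR132-3p pair, 15.04 CPM per kb (exact Poisson 95% interval 12.7 to 17.7), and its interval was clear of all others. Gbp2b followed at 7.09 (5.53 to 8.96), Gbp2 at 5.34 (3.93 to 7.11) and Gbp7 at 4.89 (3.96 to 5.97), and the intervals of these 3 overlap. Gbp9 at 2.22 (1.54 to 3.10), Gbp6 at 2.09 (1.26 to 3.26) and Gbp4 at 1.07 (0.624 to 1.72) came next, also overlapping, and Gbp8 at 0.116 (0.00295 to 0.648) and Gbp5, with 0 counts, were lowest. With the scramble shRNA, Gbp3 at 1.02 (0.489 to 1.87) and Gbp7 at 0.974 (0.595 to 1.504) had the highest values, but Gbp6 at 0.315 (0.065 to 0.920) overlaps both, and the intervals of Gbp2 and Gbp8 reach into those of Gbp3 and Gbp7, so the members could not be ordered there. Which isoforms these cells make was not analysed here.

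Members of the family resemble each other, and how reads that match several genes were counted is not stated in the labels. Of the 100-base windows in the annotated transcripts of Gbp6, 64.5% also occur in another gene, most often Gm43302, Gbp10 or Gbp11. Some are also shared with the members Gbp8 and Gbp9, so the value of Gbp6 is uncertain. For Gbp7 the share was 10.0%, with Gm43802 or Gbp3. Gm43302 and Gm43802 had 0 counts in all 4 libraries. Gbp2 and Gbp2b shared no window with any other gene, and the shares of Gbp3, Gbp4, Gbp5, Gbp8 and Gbp9 were 0.694%, 1.64%, 0.142%, 4.39% and 1.65%. Without Gbp6 and Gbp7, an alternative added after seeing the data, the summed fold was 27.0. In GENCODE M21 the genes Gbp8, Gbp9 and Gbp4 overlap each other on the same strand, Gbp6 and Gbp10 each overlap Gm43302, and Gbp7 overlaps Gm43802, so their counts are uncertain to that extent.

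None of the 12 tested genes next to the Gbp clusters was at least 2-fold higher, where 4.3% of all tested genes were, and 1 was at least 2-fold lower, where 0.954% were. With so few genes, a count of 0 is close to that background. On chromosome 3, Pdlim5, Unc5c and Gm43162 on one side were 1.25-fold (0.879 to 1.79), 1.73-fold (1.43 to 2.08) and 1.103-fold (0.685 to 1.78), and Gtf2b, Pkn2 and Lmo4 on the other side were 0.920-fold (0.759 to 1.12), 0.965-fold (0.689 to 1.35) and 0.872-fold (0.795 to 0.957). On chromosome 5, Lrrc8b, Lrrc8c and Lrrc8d, subunits of a volume-regulated anion channel, were 0.977-fold (0.812 to 1.18), 1.18-fold (0.827 to 1.69) and 1.25-fold (0.879 to 1.77). On the other side of that cluster D930016D06Rik was 0.945-fold (0.779 to 1.15) and Pkd2, a cation channel of cilia, 0.931-fold (0.749 to 1.16), but Spp1, which encodes osteopontin, had 36 and 38 counts in the anti-miR132-3p pair, against 252 and 252 in the scramble pair. It was 6.509-fold lower (5.09 to 8.43), and its libraries do not overlap.

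Over 5 lists of other genes of the pathway (related GTPases, interferon signalling, membrane recruitment, inflammasome and prenylation), 12 of 46 tested genes were at least 2-fold higher and 0 lower, where 4.3% of all tested genes were higher and 0.954% lower. The same shares are the background of the counts for each list. Of the 12, at least Irf7, Usp18, Iigp1, Ifi47 and Mx2 passed the filter through the anti-miR132-3p libraries, with at most 5 counts in the scramble pair. The lists were also chosen with earlier results known, so nothing is read from these counts. Of 17 other interferon-induced GTPases listed, 12 had an identifier and 6 were tested, 5 were at least 2-fold higher and 0 lower, with a median log2 fold of 2.38. Iigp1, an immunity-related GTPase that coats vacuoles, had 28 and 32 counts in the anti-miR132-3p pair, against 1 and 0 counts in the scramble pair, a ratio of 62.8 (10.8 to 2520). Ifi47, of the same family, had 15 and 17 counts in the anti-miR132-3p pair, against 0 and 1 counts in the scramble pair, a ratio of 33.5 (5.59 to 1363). Irgm1, a regulator of these GTPases, was 3.22-fold higher (2.21 to 4.81), and Igtp, which encodes the related regulator Irgm3, was 2.73-fold higher (1.79 to 4.28). Irgm2, the remaining tested member, was 1.87-fold (1.04 to 3.47), under the 2-fold line, and its libraries overlap. Mx2, an antiviral dynamin-like GTPase, was 8.37-fold higher (2.54 to 43.4). Tgtp1, Gm12250 and Gvin1 had 0 counts in all 4 libraries.

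Of 21 genes of interferon signalling, which acts upstream of the family, 13 were tested, 3 were at least 2-fold higher and 0 lower, with a median log2 fold of 0.25. Ifng, the gamma interferon gene, had 0 counts in all 4 libraries. Ifngr1 and Ifngr2, which encode its receptor, were 0.912-fold (0.660 to 1.26) and 1.00-fold (0.854 to 1.17). The kinases Jak1 and Jak2 were 1.06-fold (0.981 to 1.15) and 1.17-fold (0.864 to 1.58), and Tyk2 was 1.75-fold (1.15 to 2.71). Stat2 was 2.60-fold higher (2.07 to 3.27). Irf9, its partner in the complex that binds the ISRE, was 1.91-fold (1.47 to 2.49), under the 2-fold line. Irf7 had 26 and 24 counts in the anti-miR132-3p pair, against 0 and 0 in the scramble pair, at least 17.4-fold higher. Usp18, a negative regulator of the type I receptor, was 21.3-fold higher (8.85 to 67.1). Irf1, the factor most closely tied to Gbp induction by interferon gamma, had only 7 and 5 counts in the anti-miR132-3p pair and 1 and 6 counts in the scramble pair, and these overlap.

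**Figure D4:**
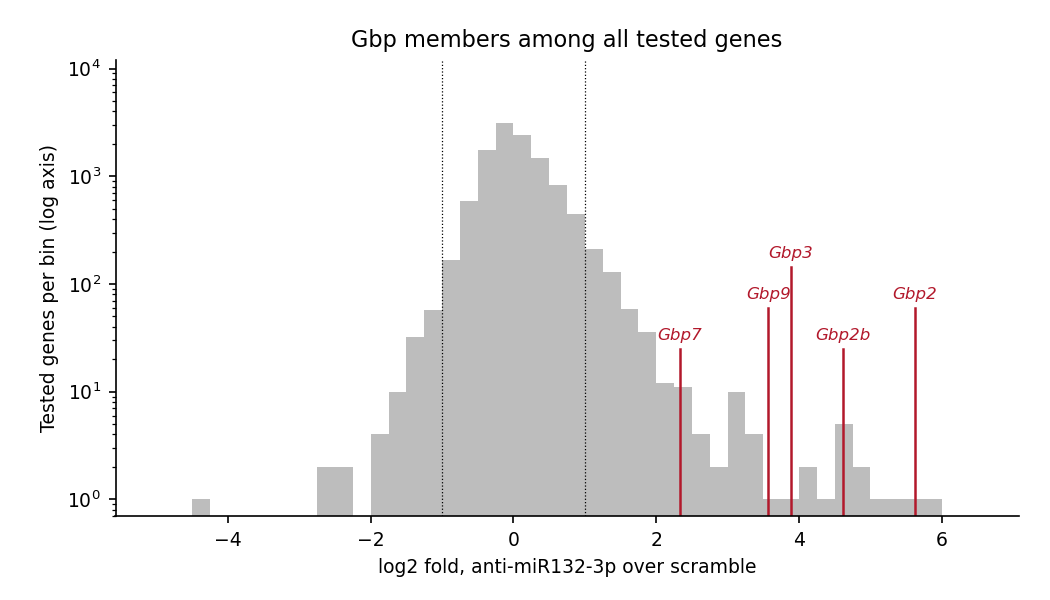
Distribution of the log2 fold, anti-miR132-3p over scramble, of the 11427 tested genes in bins of 0.25, with the number of genes on a log axis. The bins begin at -5, so the rod marker Sag, the lowest tested gene at -5.97, is not drawn. Red lines mark the 5 tested Gbp members, and dotted lines 2-fold in either direction. All 5 lie in the sparse right tail, from a log2 fold of 2.33 for Gbp7 to 5.62 for Gbp2, the values for Gbp2b and Gbp9 being lower bounds.

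The list of membrane recruitment held 15 autophagy genes and genes of ubiquitin or ISG15 conjugation, not all of them known to direct Gbp proteins to vacuoles. All 15 were tested, 3 were at least 2-fold higher and 0 lower, with a median log2 fold of -0.10. The 3 were Rnf213, a large ubiquitin ligase, 4.19-fold higher (2.25 to 8.38), Ube2l6, the conjugating enzyme of ISG15, 2.57-fold (1.23 to 5.74), and Trim21, 2.43-fold (1.44 to 4.20). In the anti-miR132-3p pair they had 36 and 16, 12 and 15, and 33 and 18 counts, through which they passed the filter. In the scramble pair they had 6 and 7, 5 and 6, and 13 and 9 counts. With a filter of at least 20 counts in 2 libraries, 0 genes of this list were at least 2-fold higher. The autophagy genes of this list lay between 0.736-fold for Map1lc3b and 1.39-fold for Atg7. Of 16 inflammasome genes, 3 were tested, and 0 were at least 2-fold higher or lower, with a median log2 fold of -0.36. Il18, a cytokine matured by caspase-1, had 7 and 7 counts in the anti-miR132-3p pair, against 14 and 15 in the scramble pair, 1.98-fold lower (1.01 to 4.05). Casp4, which encodes mouse caspase-11, Casp1, Nlrp3, Naip5, Nlrc4 and Mefv had 0 counts in all 4 libraries. Gsdmd, the pore-forming gasdermin, had 4 counts in the anti-miR132-3p pair and 0 in the scramble pair. Of 9 genes of prenylation, all tested, Icmt, which methylates prenylated ends, was 2.09-fold higher (1.33 to 3.36), and the median log2 fold was 0.02. Pggt1b, a subunit of the enzyme that attaches the anchor, was 1.04-fold (0.868 to 1.24).

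Markers of other cells were counted beside the family. Of 20 microglia and macrophage markers, 16 had a count in some library, and their sum was 30.3 and 33.2 CPM in the anti-miR132-3p pair, against 10.4 and 16.4 CPM in the scramble pair. The sum was 2.37-fold higher (1.68 to 3.39), beside 12.7-fold for the Gbp sum. Cd68, a lysosomal marker of phagocytes, ran the other way, with 16 counts in the anti-miR132-3p pair and 42 in the scramble pair. Without it, an alternative added after seeing the data, the other 19 markers held 95 counts in the anti-miR132-3p pair and 7 in the scramble pair, 14.2-fold higher (6.63 to 36.3). C1qb had the most, 17 counts in the anti-miR132-3p pair and 0 in the scramble pair, while Trem2, Itgam, Siglech and Fcrls had 0 counts in all libraries. Their part in the Gbp result was not tested. Lymphocyte markers held 0 counts in the anti-miR132-3p pair and 4 in the scramble pair, and 13 of the 16 were at 0 throughout. Of the endothelial markers, Cdh5, Cldn5, Tie1, Emcn and Erg were at 0 in all libraries, and the list summed to 84 counts in the anti-miR132-3p pair and 69 in the scramble pair. Within it, Flt1, a receptor for vascular growth factors, had 21 counts in the anti-miR132-3p pair and 3 in the scramble pair, a ratio of 7.32 (2.19 to 38.3), and Egfl7 had 39 counts in the anti-miR132-3p pair and 55 in the scramble pair. Rod markers summed to 14.9 CPM in the anti-miR132-3p pair and 84.2 CPM in the scramble pair, 5.66-fold lower (4.21 to 7.75), and Gnat1, Rcvrn and Prph2 had 0 counts in all libraries.

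Ganglion cell markers were present in all libraries, with 13 of the 14 tested, at a summed 2790 CPM in the anti-miR132-3p pair and 2868 CPM in the scramble pair. Single markers went both ways. The 13 ranged from 0.681-fold for Pou4f1 (0.520 to 0.888) to 1.47-fold for Thy1 (1.34 to 1.61), the protein used for panning. Of the amacrine markers, Pax6, which ganglion cells also make, had 5545 counts in the anti-miR132-3p pair and 5897 in the scramble pair. Müller glia markers summed to 2250 CPM in the anti-miR132-3p pair and 1745 CPM in the scramble pair. Of these, Dkk3 had 5577 counts in the anti-miR132-3p pair and 3955 in the scramble pair. Sox9 was 1.69-fold (1.09 to 2.63), Vim 1.23-fold (0.723 to 2.12), Clu 0.989-fold and Glul 0.932-fold. Rlbp1 was 0.618-fold (0.365 to 1.03) and Aqp4, which was under the filter, 0.392-fold (0.126 to 1.06). The astrocyte markers, mostly Aldoc, summed to 1919 CPM in the anti-miR132-3p pair and 2113 CPM in the scramble pair. The part of these lists in the Gbp result was not tested. A listed 0 is not proof of absence: Gad1 and Slc32a1, which amacrine cells use, had 0 counts in all 4 libraries beside 1795 counts in the anti-miR132-3p pair and 1365 in the scramble pair for Gad2. The same caution holds for Gbp5 and Casp4.

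**Figure D5:**
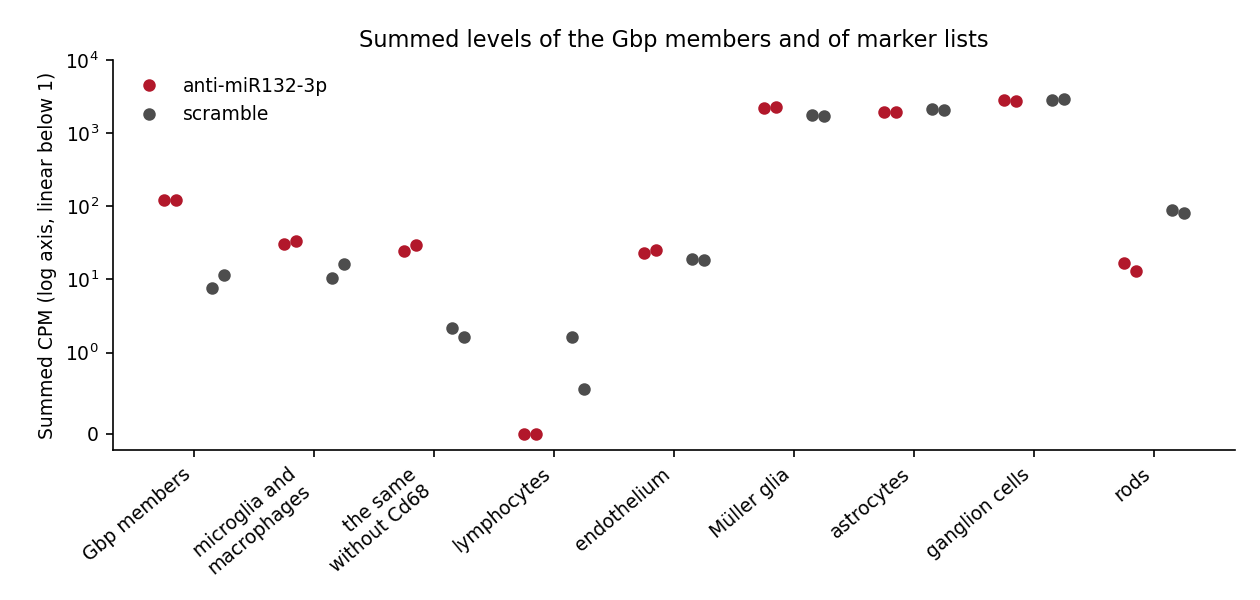
Summed CPM of the Gbp members and of 8 marker lists in each library, on an axis that is logarithmic above 1 and linear below. Points are libraries, red for the anti-miR132-3p and grey for the scramble shRNA. The Gbp members and the microglia and macrophage markers without Cd68 show the widest gaps upward in the red points, and the rods the widest gap downward.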

How the data were processed

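The authors deposited whole-number counts per Ensembl gene. The submitters' processing notes name the build GRCm39, HISAT2 2.2.1, Trimmomatic 0.39 and SAMtools 1.10, and also the Cufflinks suite, with no role or order. Which program counted, its annotation, its strand setting and its treatment of multiply matched reads are not stated there, so overlapping and antisense genes cannot be told apart.

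Identifiers were matched to symbols without version (51486 of 78334). Names, transcripts and promoters come from GENCODE M21 and RefSeq tables of GRCm38, an older build, so no coordinates of the count table are given. Genes passed edgeR's filterByExpr (11427, with 98.6% of counts) and libraries were scaled by TMM (edgeR 4.0.16, R 4.3.3, Python 3.11.15). The members, the lists and the rule for named genes were chosen with earlier results of these data known. Named were all members, list members past 2-fold or at 0 counts, the neighbours of the clusters and the remaining genes of the lists (added after seeing the data), the tested genes nearest in fold and leading markers. Nothing in the labels says that replicates came from separate animals.

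On simulated counts for this comparison (11427 genes), the 2-fold rule found 100% of 50 genes changed 4-fold and 40% of 50 changed 2-fold. It was passed by 54 of 11227 unchanged genes, and 95.7% of the intervals held the true fold. Only counting noise was simulated, so these rates leave out variation between samples, and the share of intervals follows from the construction. Protein features planned for the members were not computed, for want of protein sequences among the tables used. DESeq2 1.42.0 and edgeR's quasi-likelihood test were alternatives. Values of a few genes of the lists are not reported here.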

Additional observations from a re-analysis of the deposited data

How the results depend on the processing

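The 5 tested members kept their count of 5 at least 2-fold higher under DESeq2 size factors, library totals, 1.5-fold and 4-fold limits, edgeR's quasi-likelihood test and each left-out library (5 to 5). With no low-count filter 7 were higher, and with at least 20 counts in 2 libraries 4. DESeq2's Wald test called 3, as it gave no adjusted p for Gbp2 and Gbp9. The summed Gbp fold was 12.7 (12.7 to 12.9 under other scalings, 10.6 to 15.9 without 1 library), 22.9 without Gbp7 and 27.0 without Gbp6 and Gbp7. Bounds of single members drop by construction when 1 scramble library is left out, since 3 counts then weigh on 1 library.

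Over all genes, 491 were higher and 109 lower by the size rule. The counts were 3550 and 2590 with no filter, 296 and 49 with at least 20 counts in 2 libraries, 1433 and 587 at 1.5-fold, and 59 and 6 at 4-fold. Without 1 library they ranged from 527 to 639 higher and 125 to 220 lower. The lower count was 220 without anti-miR132-3p replicate 1 and 182 without replicate 2. By the quasi-likelihood test 1526 genes were higher and 1181 lower, with a replicate block 1735 and 1445, and by DESeq2 276 were lower. Replicate numbers are shared by the groups but do not pair the libraries (correlation of deviations 0.01). The spread behind these tests is measured within pairs, so their p-values compare reads of these libraries and not conditions. In the 5 pathway lists 12 genes were higher and 0 lower. The settings gave 19 and 2 with no filter, 7 higher with 20 counts, 6 higher at 4-fold, 6 and 3 with DESeq2, 5 lower with the quasi-likelihood test, 7 lower with the block, 1 lower at 1.5-fold, and 11 to 13 higher and 0 to 1 lower without 1 library. The cause of the differences was not tested beyond the construction of each setting. At this depth Gbp4, Gbp5, Gbp6 and Gbp8 lay under the filter.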

Other observations

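The 5 tested genes outside the family whose log2 fold lay nearest to that of the summed Gbp members, a likeness over 2 groups only, were Cxcl13, Trim30a, Xaf1, Tgfbi and Ifi44. Cxcl13, a chemokine for B cells, had 68 and 73 counts in the anti-miR132-3p pair, against 5 and 9 counts in the scramble pair, 10.5-fold higher (6.08 to 19.8). Trim30a had 10 and 20 counts and Xaf1 16 and 14 counts in the anti-miR132-3p pair, against 0 in the scramble pair, a lower bound of 10.5-fold for both. Tgfbi, an extracellular matrix protein, had 17 and 22 counts in the anti-miR132-3p pair, against 1 and 3 counts in the scramble pair, 10.2-fold higher (3.68 to 39.3). Ifi44 had 27 and 22 counts in the anti-miR132-3p pair, against 0 and 0 in the scramble pair, at least 17.1-fold higher.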
